A study of Mus musculus with 16 samples.

Results

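The conjugation enzymes of phase II metabolism and the carboxylesterases were followed in colonic epithelial cells of mice. The members are the protein-coding genes whose names begin with Gsta, Gstm, Gsto, Gstp, Gstt, Gstk, Gstz, Mgst, Ugt1a, Ugt2, Sult, Ces1 or Ces2. The table of 56268 genes held 80 of them, and the 44 that reached 1 FPKM (fragments scaled to exon length and library size) in at least 4 of 16 libraries are described by family. RNA sequencing covered 4 groups of 4 libraries: cKO after DSS, control after DSS, cKO on water and control on water. The cKO mice carried floxed Rictor and Villin-Cre, and the control mice, whose titles call them WT, carried Villin-Cre alone, so that every group carried Cre under the promoter of Villin, which is active in intestinal epithelium. Rictor is a defining subunit of mTOR complex 2, and DSS is dextran sulfate sodium, given at 3% in drinking water to injure the colonic epithelium and induce colitis. Age and sex are not given in the labels, nor do they say that each library came from a separate animal, so p-values reflect spread among libraries that may be technical. The design asks how loss of Rictor alters expression in the epithelium with and without colitis.

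Phase II enzymes attach a polar group to drugs, dietary compounds, bile pigments, hormones and products of lipid oxidation. Glutathione S-transferases (Gst, with membrane-bound forms named Mgst) add glutathione, UDP-glucuronosyltransferases (Ugt) add glucuronic acid, and sulfotransferases (Sult) add sulfate taken from the donor PAPS. Carboxylesterases (Ces) hydrolyse esters, including many prodrugs and acylglycerols. In the gut the epithelium is the barrier to such compounds from food and from the microbiota.

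The libraries held 13911823 to 16414914 reads, recovered from the FPKM values. Mitochondrial genes took 4.74 to 7.34% of reads in the DSS libraries and 7.66 to 15.1% in the water libraries, with no overlap. Epcam, a defining marker of epithelium, stood at 639 to 866 FPKM. Rictor had 1.92 to 2.96 FPKM in cKO DSS libraries and 2.82 to 4.16 FPKM in control DSS libraries. On water it had 2.22 to 2.75 FPKM in cKO libraries and 2.17 to 3.14 FPKM in control libraries. Neither difference passed the test (adjusted p = 0.0761 after DSS and 0.582 on water), so Rictor does not settle the genotype labels, though a whole-gene FPKM need not fall when only floxed exons are lost. Reads from Y-linked genes numbered 2681 to 4533 in the DSS libraries and 635 to 1856 in 5 water libraries, while control 3, cKO 3 and cKO 4 on water had 0. Xist, expressed from the inactive X chromosome of females, had 10022 to 25600 reads in water libraries, 5275 in control DSS 2 and 0 to 7 in the other DSS libraries. Thus 5 water libraries and control DSS 2 held both kinds of reads, and whether libraries pool several animals is not said in the labels. The sex makeup of the libraries and DSS cannot be told apart. Libraries cKO DSS 3 and 4 stood apart from the rest of their group: across genes, their deviations from the mean of all libraries had Spearman correlations of 0.399 and 0.388 with GC content, against -0.255 and -0.375 in cKO DSS 1 and 2. The same correlation was -0.483 to 0.0178 in control DSS, -0.226 to 0.0052 in cKO water and 0.190 to 0.498 in control water libraries. With each library corrected for GC, all 9 calls with DSS in control mice and all 5 in cKO mice were kept.

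The most abundant members came from several classes. Over the 16 libraries Mgst3 averaged 203.5 FPKM, Gsto1 187, Sult1a1 166, Sult1d1 162, Ugt2b34 149 and Gstm1 120. These 6 were above 100 FPKM, 19 others lay between 10 and 100, and 19 lay under 10. Summed over the 44 members, FPKM was 1571 to 1706 per library in cKO DSS, 1733 to 1796 in control DSS, 1543 to 1857 in cKO water and 1552 to 1970 in control water. Within most families 1 member carried much of the sum: Gsta4 made up 84.2% of the Gsta sum, Ugt2b34 84.0% of the Ugt2 sum, Mgst3 69.7% of the Mgst sum, Ugt1a7c 58.6% of the Ugt1a sum and Gstm1 52.7% of the Gstm sum. All 7 Gstm and all 3 Mgst genes were described, against 6 of 21 Sult, 4 of 9 Ugt1a and 4 of 10 Ugt2 genes. Of the 36 members that were not described, 16 had no read in any library, among them Sult2a1 to Sult2a8 and Ugt2a1 to Ugt2a3. A count of 0 allows 3 reads, which is 0.0671 to 0.298 FPKM for these genes over their full length. Ugt2a1, Ugt2a2 and Ugt1a8, also among the 16, share 98.8%, 94.5% and 59.2% of their exon bases with other genes. Reads there could be lost in counting, so for them a count of 0 does not bound the level. The other 20 never exceeded 1.08 FPKM, reached by Gstp2 in 1 library. Just inside the threshold stood Sult6b1, which reached 1 FPKM in 6 libraries, Ces1c in 11 and Ugt2b36 in 12.

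**Figure D1:**
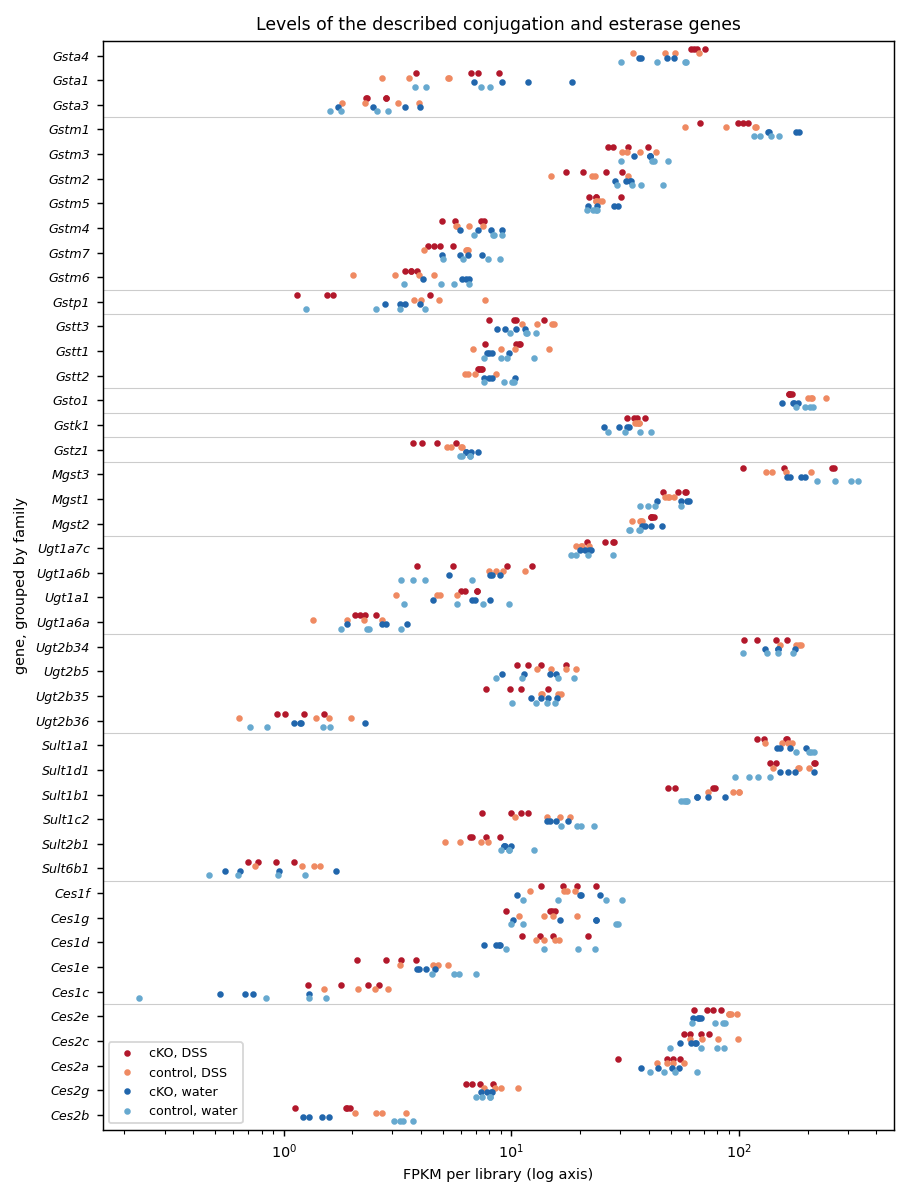
FPKM of the 44 described members by library on a log axis, grouped by family. Mgst3, Gsto1, Sult1a1, Sult1d1, Ugt2b34 and Gstm1 average above 100 FPKM, and 19 members average under 10.

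After DSS the members moved in both directions, and about as often as genes at large. In control mice 9 of 44 members were called at an adjusted p under 0.05: Sult1b1, Sult1d1, Ugt1a6b and Ces1c rose, and Sult2b1, Mgst3, Sult1a1, Gstm2 and Gstt2 fell. That is 20.5% of the members, where 28.5% of all 13255 tested genes were called, 15% higher and 13.5% lower. In cKO mice 5 of 44 were called: Ces1d and Ces1c rose, and Gstz1, Sult1c2 and Gstm1 fell. That is 11.4%, where 14.7% of all genes were called, 8.07% higher and 6.64% lower. Ces1c, counted in both genotypes, passed the filter only through its DSS libraries. The median member moved by 0.01 in control mice and by -0.08 in cKO mice on the log2(FPKM + 1) scale, against -0.01 for all genes in both. Changes are given on that scale with their standard errors, and it understates changes of low genes. The groups did not overlap for 7 members in control mice (28.3% of all genes) and for 9 in cKO mice (19.1% of all genes). The 2 DSS comparisons share no library, and 26 of 44 members moved in the same direction in both.

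Several measures moved together with DSS, where 14.7% of all genes were called in cKO mice and 28.5% in control mice. Fibroblast and matrix markers rose for 5 of 7 tested genes in cKO and 6 of 7 in control mice, with summed levels of 13.5 to 15.7 FPKM in cKO DSS, 17.0 to 23.3 in control DSS, 7.87 to 9.64 in cKO water and 6.81 to 10.3 in control water. Monocyte and macrophage markers rose for 3 of 4 tested genes in each genotype, and the other, Cd68, fell in control mice. Their sums were 70.5 to 103 FPKM in cKO DSS, 66.0 to 79.9 in control DSS, 39.7 to 58.7 in cKO water and 35.8 to 49.1 in control water. These sums cover all 10 listed genes, of which only 4 passed the filter, and Cd14 had the highest mean. None of the 10 genes of either list was at 0 in every library. Crypt base and transit markers fell for 8 of 11 genes in cKO and 3 of 11 in control mice. Of 15 clock genes, 4 rose and 8 fell in cKO mice, and 5 rose and 7 fell in control mice. Of 8 tested enteroendocrine markers, 6 rose in cKO mice, and 4 rose and 1 fell in control mice, while of 14 colonocyte markers 2 rose and 2 fell in cKO mice and 1 rose and 3 fell in control mice. In such bulk libraries, fewer cells of a type and less RNA per cell cannot be told apart. The part of these genes in the member results was not tested. Counts also rested on single libraries: without control 3, control 4, control DSS 1, control DSS 2 or control DSS 4 in turn, the control count was 4, 3, 3, 4 and 5, where 16.9 to 19.3% of all genes were called. Without cKO 1, cKO 3, cKO 4, cKO DSS 1 or cKO DSS 4 in turn, the cKO count was 2, 3, 2, 3 and 3, where 9.85 to 13% of all genes were called. With the Y-linked level as a covariate, the counts were 1 in control and 0 in cKO mice, and the 1 member then called in control, Mgst1, was not among the 9. Of all genes, 1.46% and 0.709% were called with that covariate. With the 3 libraries without Y-linked reads left out they were 4 and 0, where 13.4% and 4.28% of all genes were called.

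**Figure D2:**
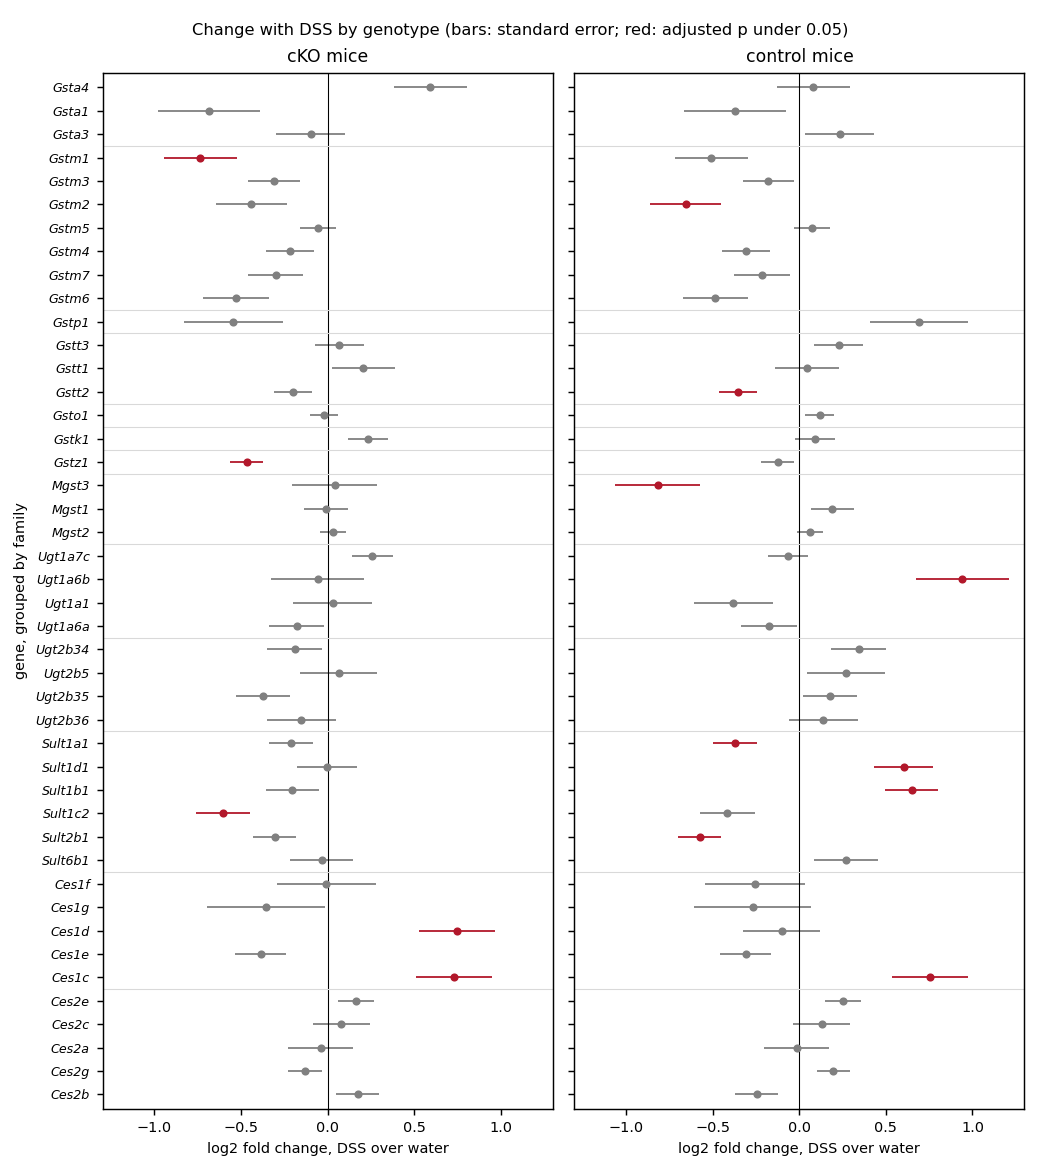
Change with DSS on the log2(FPKM + 1) scale for the 44 members, in cKO and in control mice, with standard errors. Members run from rises of 0.94 (Ugt1a6b, control) to falls of -0.82 (Mgst3, control).

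Of the 6 described sulfotransferases, 2 rose and 2 fell with DSS in control mice, where 28.5% of all genes were called. In cKO mice 1 of the 6 fell, where 14.7% of all genes were called. Sult1b1, which sulfates thyroid hormones and phenols, and Sult1d1, which in mice sulfates catecholamines, lie side by side on the minus strand of mm10 chromosome 5, at chr5:87513339-87538195 and chr5:87554645-87569027, with 16449 bases between them. Both rose in control mice. The 250 bases before the RefSeq start of these genes and of Sult1a1, a phenol sulfotransferase that fell in the same comparison, are shown to let the neighbours be compared with a member that moved the other way. They are RefSeq promoter windows of GRCm38.p6, all on the minus strand, at chr5:87538196-87538445, chr5:87569007-87569256 and chr7:126676419-126676668. The RefSeq starts of Sult1d1 and Sult1a1 lie inside the genes as deposited, so the last bases of those windows fall within the deposited genes. Capitals mark an HNF1 motif and, after it, an XRE motif on the reverse strand.
Sult1b1: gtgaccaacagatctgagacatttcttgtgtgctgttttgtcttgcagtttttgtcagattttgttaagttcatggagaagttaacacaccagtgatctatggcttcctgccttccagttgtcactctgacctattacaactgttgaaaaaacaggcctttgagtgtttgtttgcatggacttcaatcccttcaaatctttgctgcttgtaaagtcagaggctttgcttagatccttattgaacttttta
Sult1d1: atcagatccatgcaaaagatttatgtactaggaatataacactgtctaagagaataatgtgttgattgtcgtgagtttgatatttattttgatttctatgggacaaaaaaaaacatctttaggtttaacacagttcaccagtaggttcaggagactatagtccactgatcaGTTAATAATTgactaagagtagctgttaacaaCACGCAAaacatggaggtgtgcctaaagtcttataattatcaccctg
Sult1a1: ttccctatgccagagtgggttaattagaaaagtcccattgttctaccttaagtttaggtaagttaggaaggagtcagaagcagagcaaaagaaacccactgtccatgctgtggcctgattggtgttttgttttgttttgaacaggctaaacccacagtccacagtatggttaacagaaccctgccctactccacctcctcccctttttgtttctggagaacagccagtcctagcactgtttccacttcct

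The windows were searched on both strands for 5 motifs: TGACNNNGC (ARE, bound by NRF2), TNGCGTG (XRE, bound by the aryl hydrocarbon receptor), CAAAGTCCA (HNF4), TTTATNG (CDX) and the HNF1 motif. The Sult1d1 window held the HNF1 motif and the XRE, which did not overlap, and the Sult1b1 and Sult1a1 windows held none of the 5. Of 32851 windows in the table, 10.2% held the ARE, 4.10% the XRE, 0.371% the HNF1, 0.384% the HNF4 and 9.81% the CDX letters. RefSeq windows were matched for 38 of the 44 members. The ARE letters were in the windows of Gsta3, Gstm5, Gstm7 and Mgst1, the CDX letters in those of Gstm6 and Ces1g, and the HNF1 letters also in that of Ugt1a1. A match is a description of letters and no evidence of binding.

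Sult1b1 had 78.1, 76.6, 48.8 and 52.2 FPKM in cKO DSS libraries, 94.1, 99.5, 73.3 and 100 in control DSS, 65.1, 65.4, 87.0 and 73.3 in cKO water and 58.5, 57.5, 59.1 and 55.8 in control water. All 4 control DSS libraries lay above all 4 control water libraries, while the cKO DSS and cKO water libraries overlapped. The change was 0.65 ± 0.15 (adjusted p = 0.00826) in control mice and -0.20 ± 0.15 (adjusted p = 0.418) in cKO mice. Sult1d1 had 216, 212, 136 and 146 FPKM in cKO DSS libraries, 184, 181, 140 and 202 in control DSS, 164, 150, 213 and 176 in cKO water and 137, 110, 121 and 95.6 in control water. Here too control DSS lay wholly above control water, and the cKO groups overlapped. Sult1d1 rose by 0.60 ± 0.17 in control mice (adjusted p = 0.0195), against -0.00 ± 0.17 in cKO mice (adjusted p = 0.991). Exons of both genes are poor in G and C, at 37.2% for Sult1b1 and 32.9% for Sult1d1, and correcting every library for GC lowered the changes to 0.36 and 0.38, both still called. The call for Sult1b1 held when any 1 of the 16 libraries was left out, and that for Sult1d1 was lost without control 4, control DSS 1 or control DSS 4.

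Sult2b1, which sulfates cholesterol and other hydroxysteroids, had 6.61, 8.91, 7.72 and 6.72 FPKM in cKO DSS libraries, 5.95, 7.38, 7.90 and 5.11 in control DSS, 9.25, 9.24, 9.92 and 9.34 in cKO water and 12.6, 8.99, 9.79 and 9.71 in control water. In each genotype all DSS libraries were below all water libraries. Sult2b1 fell by 0.58 ± 0.12 in control mice (adjusted p = 0.00544), a call that held without any 1 library, against -0.31 ± 0.12 in cKO mice (adjusted p = 0.117). Sult1a1 had 162, 119, 129 and 161 FPKM in cKO DSS, 164, 154, 170 and 130 in control DSS, 151, 147, 196 and 168 in cKO water and 212, 177, 203 and 206 in control water. It was lower in every control DSS library than in any control water library. Sult1a1 fell by 0.37 ± 0.13 in control mice (adjusted p = 0.0394), and the call was lost without control 1, control 3, control 4, cKO 4, control DSS 1, control DSS 2 or control DSS 4. Sult1c2, a cytosolic sulfotransferase, had 11.8, 9.94, 7.42 and 11 FPKM in cKO DSS, 16.4, 14.3, 10.3 and 18 in control DSS, 14.8, 14.3, 17.7 and 15.7 in cKO water and 19.4, 16.5, 23.0 and 20.2 in control water. It fell by 0.60 ± 0.16 in cKO mice (adjusted p = 0.0195), against -0.42 ± 0.16 in control mice (adjusted p = 0.0607). The call for Sult1c2 was lost without cKO 3 or without cKO DSS 3, and without cKO DSS 3 and 4 together the change was -0.49 (adjusted p = 0.0893). Sult6b1, at 0.472 to 1.69 FPKM, was not called in any of the 5 comparisons.

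**Figure D3:**
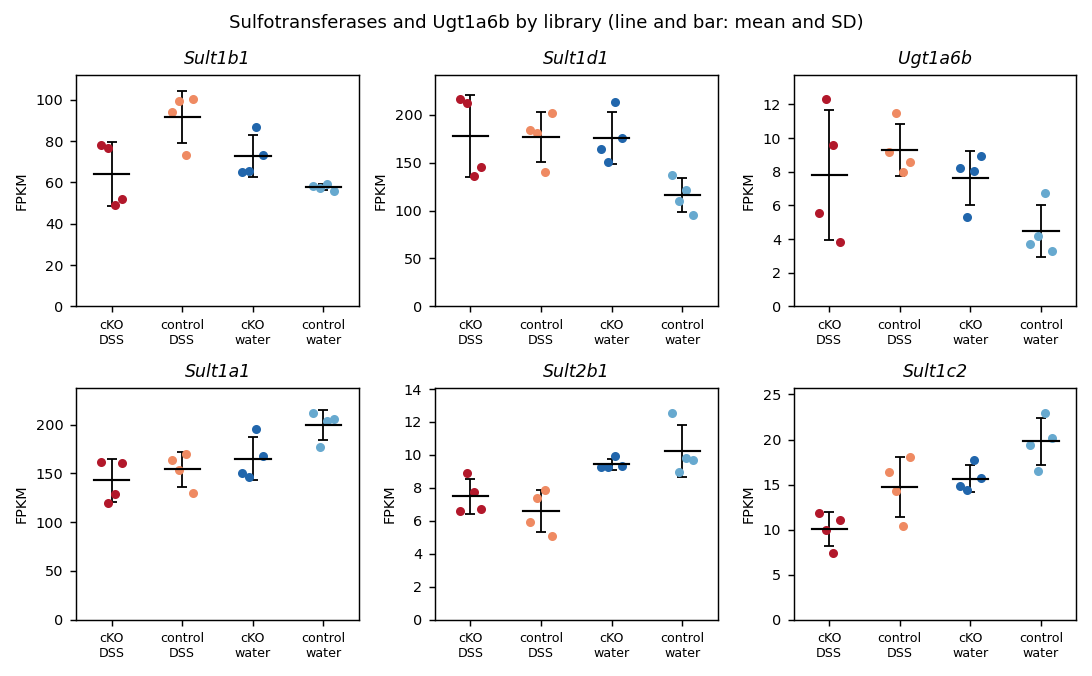
FPKM per library of Sult1b1, Sult1d1, Ugt1a6b, Sult1a1, Sult2b1 and Sult1c2 in cKO DSS, control DSS, cKO water and control water. The neighbours Sult1b1 and Sult1d1 are higher in control DSS than in control water, with no overlap, and Sult1a1 and Sult2b1 are lower.

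Among the glucuronosyltransferases only Ugt1a6b was called, with DSS in control mice, where 28.5% of all genes were called. The 4 described Ugt1a genes lie in 1 cluster at chr1:88095062-88220002 (mm10), where alternative first exons are joined to shared later exons. Ugt1a6b had 5.52, 12.3, 9.58 and 3.84 FPKM in cKO DSS, 9.17, 11.5, 7.96 and 8.58 in control DSS, 8.22, 5.31, 8.05 and 8.91 in cKO water and 3.71, 4.18, 6.71 and 3.26 in control water. Control DSS lay wholly above control water, while cKO DSS reached both below and above cKO water. Ugt1a6b rose by 0.94 ± 0.27 in control mice (adjusted p = 0.0194), against -0.06 ± 0.27 in cKO mice (adjusted p = 0.917). It shares 60.6% of its exon bases with other Ugt1a genes, as do Ugt1a1 (82.7%), Ugt1a7c (54.6%) and Ugt1a6a (50.3%), so the split of reads among them is uncertain. Without control 4 or without control DSS 2 the call was lost. Ugt1a1, the enzyme that conjugates bilirubin, had 5.99 to 7.07 FPKM in cKO DSS, 3.13 to 5.77 in control DSS, 4.51 to 8.03 in cKO water and 3.37 to 9.72 in control water. Ugt1a7c, the highest of the cluster, had 25.7, 28.2, 21.4 and 27.9 FPKM in cKO DSS, 20.5, 22.0, 20.3 and 19.1 in control DSS, 22.3, 20.1, 21 and 21.9 in cKO water and 27.9, 19.1, 21.7 and 18.2 in control water. Its change with DSS was 0.26 ± 0.12 in cKO mice and -0.06 ± 0.12 in control mice (adjusted p = 0.156 and 0.705). Ugt1a6a, at 1.35 to 3.49 FPKM, was not called. The Ugt2b genes act on steroids and other lipophilic substrates. Ugt2b34, the most abundant of them, had 145, 162, 105 and 120 FPKM in cKO DSS, 182, 187, 151 and 177 in control DSS, 149, 130, 176 and 148 in cKO water and 173, 133, 148 and 104 in control water. Its change with DSS was -0.19 ± 0.16 in cKO mice and 0.34 ± 0.16 in control mice (adjusted p = 0.478 and 0.117). Ugt2b35 and Ugt2b5 had 7.72 to 16.5 and 8.54 to 19.3 FPKM over all libraries, Ugt2b36 had 0.638 to 2.28, and none of the 4 described Ugt2 genes was called.

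The 7 Gstm genes lie together at chr3:107895821-108044894 (mm10) and encode mu-class glutathione S-transferases. With DSS, all 7 changes were negative in cKO mice and 6 of 7 in control mice, and 1 was called in each genotype. The shares over all genes were 14.7% called in cKO mice and 28.5% in control mice, with a median change of -0.01 in both. Gstm1 had 67, 98.9, 104 and 109 FPKM in cKO DSS, 87.7, 118, 119 and 57.9 in control DSS, 178, 135, 134 and 183 in cKO water and 149, 117, 138 and 124 in control water. Every cKO DSS library was below every cKO water library, and the control groups overlapped. Gstm1 fell by 0.74 ± 0.21 in cKO mice (adjusted p = 0.0303), against -0.51 ± 0.21 in control mice (adjusted p = 0.0821). Gstm2 had 17.4, 20.5, 26.0 and 30.6 FPKM in cKO DSS, 23.2, 22.7, 32.4 and 14.9 in control DSS, 33.1, 32.0, 28.5 and 33.7 in cKO water and 29.1, 33.7, 36.9 and 46.5 in control water. It fell by 0.66 ± 0.21 in control mice (adjusted p = 0.028), although 1 control DSS library lay within the range of the control water libraries. Gstm6 showed -0.53 ± 0.19 in cKO mice and -0.49 ± 0.19 in control mice (adjusted p = 0.0742 and 0.0657). Gstm5 was the flattest, at 21.9 to 30.4 FPKM in cKO DSS, 23.5 to 25.1 in control DSS, 21.8 to 29.3 in cKO water and 21.4 to 23.8 in control water. Over all libraries Gstm3 had 26.5 to 48.5 FPKM, Gstm4 4.95 to 9.06 and Gstm7 4.13 to 8.87, and none of these was called. Windows of 50 bases shared with another gene made up 28.8% of Gstm3, 23.2% of Gstm1, 11.5% of Gstm6, 10.1% of Gstm5 and 9.36% of Gstm2. Reads of these genes could therefore be split or lost in counting. The call for Gstm1 was lost without cKO 1, cKO 4 or cKO DSS 1, and that for Gstm2 without control 3, control 4, control DSS 1, control DSS 2 or control DSS 4.

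The membrane-bound transferases, of which Mgst2 and Mgst3 also act on lipid peroxides and leukotriene precursors, were led by Mgst3 at chr1:167371966-167393841. It had 158, 104, 262 and 257 FPKM in cKO DSS, 131, 161, 207 and 140 in control DSS, 194, 162, 168 and 188 in cKO water and 265, 219, 308 and 334 in control water. All control DSS libraries lay below all control water libraries, and the cKO DSS libraries fell on both sides of cKO water. Mgst3 fell by 0.82 ± 0.24 with DSS in control mice (adjusted p = 0.0236), against 0.04 ± 0.24 in cKO mice (adjusted p = 0.938). The call was lost without control 3, control 4, control DSS 1 or control DSS 4. Mgst1, of the outer mitochondrial membrane and endoplasmic reticulum, had 36.6 to 60.2 FPKM over all libraries and was not called. Mgst2 stayed between 32.9 and 45.8 FPKM.

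**Figure D4:**
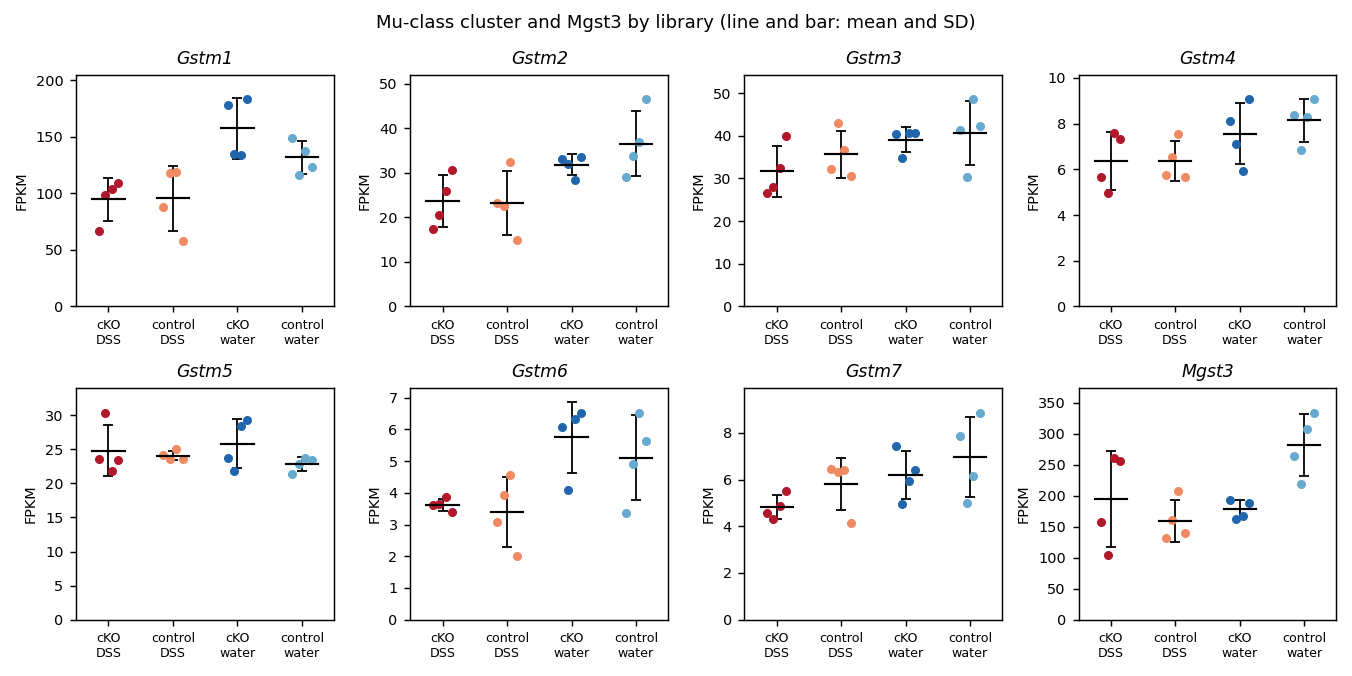
FPKM per library of Gstm1 to Gstm7 and of Mgst3 in cKO DSS, control DSS, cKO water and control water. Every cKO DSS value of Gstm1 is below every cKO water value, and every control DSS value of Mgst3 is below every control water value.

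Among the soluble transferases outside the mu class, only Gstz1 was called with DSS in cKO mice and only Gstt2 in control mice. The shares over all genes were 14.7% in cKO mice and 28.5% in control mice. Gstz1 catalyses an isomerization step of tyrosine breakdown. It had 4.73, 3.70, 4.06 and 5.69 FPKM in cKO DSS, 5.99, 6.07, 5.44 and 5.24 in control DSS, 6.67, 6.30, 7.12 and 6.32 in cKO water and 5.96, 6.60, 6.05 and 6.55 in control water. The cKO DSS libraries were all below the cKO water libraries. Gstz1 fell by 0.47 ± 0.10 in cKO mice (adjusted p = 0.00503), a call that held without any 1 library, against -0.13 ± 0.10 in control mice (adjusted p = 0.34). Of its exon bases, 12.2% overlap other genes. Gstt2, of the theta class, had 7.35, 7.4, 7.13 and 7.18 FPKM in cKO DSS, 6.24, 6.47, 8.56 and 6.96 in control DSS, 7.99, 7.60, 10.3 and 8.20 in cKO water and 7.55, 9.32, 10 and 10.2 in control water. It fell by 0.35 ± 0.11 in control mice (adjusted p = 0.0276), with overlapping groups. The call for Gstt2 was lost without control 2, control 3, control 4, control DSS 1, control DSS 2 or control DSS 4. Gsta4, which conjugates the lipid peroxidation aldehyde hydroxynonenal, had 70.5, 65.6, 61.7 and 63.3 FPKM in cKO DSS, 52.4, 47.1, 34.2 and 66.5 in control DSS, 51.8, 37.1, 48.3 and 36.3 in cKO water and 43.5, 30.3, 57.6 and 58.6 in control water. All cKO DSS libraries were above all cKO water libraries, yet the change of 0.59 ± 0.21 did not pass the test (adjusted p = 0.0704). Gsta1, of the alpha class, ranged over 3.81 to 8.84, 2.71 to 5.32, 6.86 to 18.5 and 3.78 to 8.03 FPKM in the groups cKO DSS, control DSS, cKO water and control water. It shares 89.7% of its 50-base windows with other genes, mostly Gm3776 (82.9%), so its level is uncertain. Gstk1, of mitochondria and peroxisomes, had 38.8, 34.5, 32.1 and 35.7 FPKM in cKO DSS, 35.5, 36.3, 36.5 and 34.9 in control DSS, 29.6, 25.4, 32.0 and 32.7 in cKO water and 36.8, 26.6, 31.5 and 41.2 in control water. Its change with DSS was 0.23 ± 0.12 in cKO mice and 0.09 ± 0.12 in control mice (adjusted p = 0.202 and 0.589). Gstt3, the most abundant theta-class member, had 14.0, 10.5, 7.94 and 10.3 FPKM in cKO DSS, 15.1, 12.9, 11.2 and 15.4 in control DSS, 9.34, 8.68, 11.5 and 10.5 in cKO water and 11.7, 9.86, 11.6 and 12.8 in control water, with changes of 0.07 ± 0.14 in cKO mice and 0.23 ± 0.14 in control mice (adjusted p = 0.801 and 0.243). Gstt1 had 6.80 to 14.6 FPKM and Gsta3 1.60 to 3.97 FPKM over all libraries, and neither was called.

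Carboxylesterases of the Ces1 and Ces2 families lie in 2 clusters of chromosome 8, at chr8:93099015-93337308 and chr8:104734003-104969537 (mm10). With DSS, Ces1c and Ces1d rose in cKO mice and Ces1c rose in control mice, and no Ces2 gene was called. The shares over all genes were 14.7% in cKO mice and 28.5% in control mice. Ces1c, known as a carboxylesterase of mouse plasma, had 2.35, 2.62, 1.28 and 1.79 FPKM in cKO DSS, 2.51, 2.88, 2.11 and 1.51 in control DSS, 0.676, 0.733, 1.3 and 0.526 in cKO water and 1.3, 1.54, 0.835 and 0.231 in control water. It rested on 8 to 96 reads per library, and 17.0% of its 50-base windows are shared with other genes. All DSS libraries reached 1 FPKM, but on water only control 1, control 2 and cKO 3 did. The gene thus passed the filter only through its DSS libraries, where it was high, and without the filter neither call was kept. Ces1c rose by 0.73 ± 0.22 in cKO mice (adjusted p = 0.0382) and by 0.75 ± 0.22 in control mice (adjusted p = 0.0217), and in each genotype 1 DSS library lay within the water range. With a pseudocount of 0.1 the changes were 1.24 and 1.32, and the first was no longer called (adjusted p = 0.0634). Ces1d, a triacylglycerol hydrolase, had 21.7, 11.1, 13.4 and 15.2 FPKM in cKO DSS, 15.5, 13.8, 12.8 and 16.2 in control DSS, 8.82, 7.55, 8.59 and 8.92 in cKO water and 19.5, 9.45, 23.2 and 13.9 in control water. The cKO water libraries were below all 12 others. Ces1d rose by 0.75 ± 0.22 with DSS in cKO mice (adjusted p = 0.0335), against -0.10 ± 0.22 in control mice (adjusted p = 0.751). Leaving out any 1 of cKO 1, cKO 2, cKO 3, cKO 4, cKO DSS 1 or cKO DSS 4 ended that call, as did leaving out cKO DSS 3 and 4 together (0.81, adjusted p = 0.0778). Without control 3, control 4, control DSS 1 or control DSS 2 the control call for Ces1c was lost, and without cKO 1, cKO 2, cKO 4, cKO DSS 1, cKO DSS 2 or cKO DSS 4 so was the cKO call. Ces1f, the most abundant Ces1 gene, had 19.3, 13.5, 23.5 and 16.8 FPKM in cKO DSS, 17.6, 17.0, 19.0 and 12.1 in control DSS, 20.2, 10.6, 19.9 and 24.5 in cKO water and 26.0, 11.3, 30.5 and 16 in control water. Its change with DSS was -0.01 ± 0.29 in cKO mice and -0.26 ± 0.29 in control mice (adjusted p = 0.992 and 0.528). Ces1g also spread widely, with 9.94 to 29.5 FPKM among the 4 control water libraries. Ces2e, the most abundant carboxylesterase, had 83.4, 63.5, 77.1 and 72.6 FPKM in cKO DSS, 89.8, 90.5, 91.8 and 97.4 in control DSS, 66.1, 67.7, 66.4 and 62.5 in cKO water and 85.2, 62.2, 86.5 and 78.1 in control water. Its change of 0.25 ± 0.10 in control mice did not pass (adjusted p = 0.081). Ces1e had 2.10 to 3.80 FPKM in cKO DSS, 3.24 to 5.28 in control DSS, 3.86 to 4.60 in cKO water and 4.50 to 6.97 in control water, and Ces2g 6.30 to 10.7 over all libraries, with no call for either. Ces2c and Ces2a had 49.7 to 98.6 and 29.4 to 65.3 FPKM over all libraries, and Ces2c shares 42.2% of its windows with other genes, mostly the pseudogene Ces2d-ps (38.2%).

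Between genotypes, 1 member was called on water and another after DSS. On water Ces2b was lower in cKO mice, and it was 1 of 44 members called (2.27%), where 0.0905% of all genes were called and 0.0377% were called lower. Ces2b, of the carboxylesterase 2 family, had 1.21, 1.58, 1.47 and 1.29 FPKM in cKO water libraries, against 3.71, 3.25, 3.34 and 3.07 in control water. After DSS it had 1.90, 1.13, 1.95 and 1.87 FPKM in cKO libraries, against 2.71, 2.55, 3.43 and 2.06 in control libraries. The cKO libraries were below the control libraries in each condition, with no overlap. Ces2b fell by 0.86 ± 0.12 on water (adjusted p = 0.0195), and the difference after DSS was -0.44 ± 0.12 (adjusted p = 0.0607). It rested on 60 to 189 reads per library, and the call on water was lost without control 1, cKO 3 or cKO 4. cKO 3 and cKO 4 held no Y-linked read, and without all 3 libraries that held none the difference was -0.86 (adjusted p = 0.282).

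After DSS Gsto1 was lower in cKO mice, 1 of 44 members called where 3.70% of all genes were called and 1.67% were called lower. Gsto1 encodes an omega-class enzyme that reduces dehydroascorbate and acts as a thioltransferase. It had 166, 171, 167 and 166 FPKM in cKO DSS libraries, against 209, 206, 201 and 240 in control DSS. On water it had 172, 154, 173 and 181 FPKM in cKO libraries, against 204, 178, 195 and 210 in control libraries, where 1 pair of libraries overlapped. Gsto1 fell by 0.35 ± 0.08 after DSS (adjusted p = 0.0343), with -0.21 ± 0.08 on water (adjusted p = 0.219). The call was lost without control DSS 1, control DSS 2, control DSS 4, cKO DSS 3 or cKO DSS 4. Quantile normalization (-0.29, adjusted p = 0.0551) and a fit to the 8 DSS libraries alone (adjusted p = 0.11) also ended it, and it held in 5 of 11 other settings. Without cKO DSS 3 and 4 the difference in Gsto1 was -0.34 and not called (adjusted p = 0.204). In the same comparison Gstp1, a pi-class transferase, had 4.40, 1.65, 1.15 and 1.55 FPKM in cKO DSS, against 7.64, 4, 4.83 and 3.73 in control DSS. On water it had 3.98, 2.79, 3.42 and 3.25 FPKM in cKO libraries, against 1.25, 2.54, 4.19 and 3.24 in control libraries. Its difference after DSS was -0.98 ± 0.28 (adjusted p = 0.0691), and 62.3% of its windows are shared with Gstp2.

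**Figure D5:**
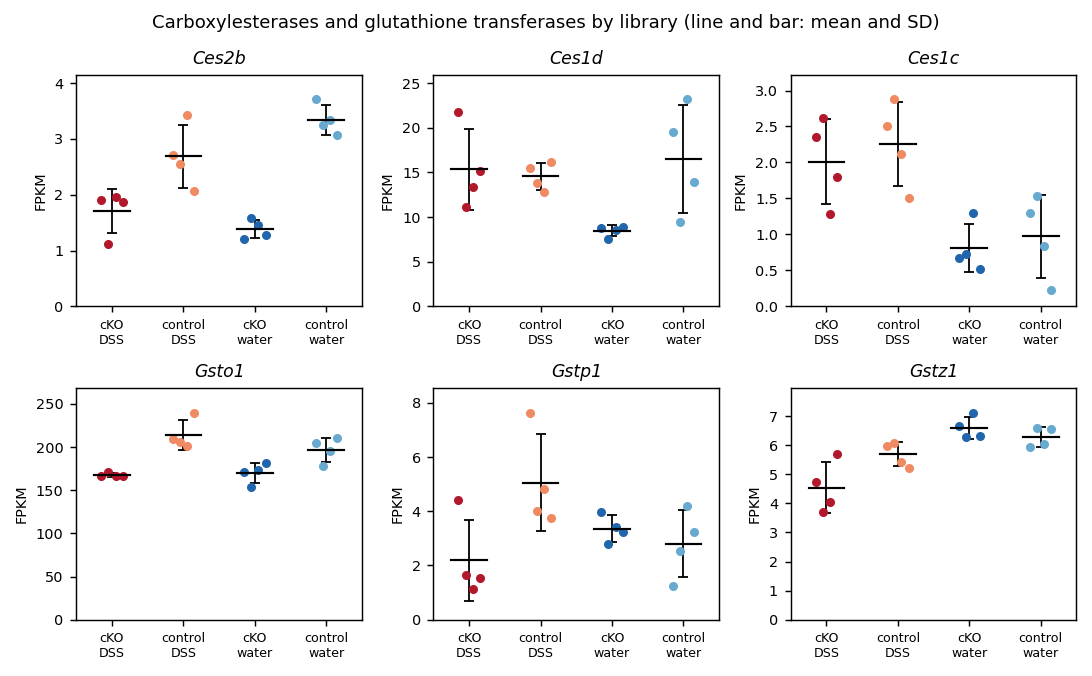
FPKM per library of Ces2b, Ces1d, Ces1c, Gsto1, Gstp1 and Gstz1 in cKO DSS, control DSS, cKO water and control water. Every cKO value of Ces2b is below every control value of the same condition, and the 4 cKO DSS values of Gsto1 lie between 166 and 171 FPKM.

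The groups did not overlap for 6 members on water (15.5% of all genes) and for 5 after DSS (10% of all genes). Mgst2 was among them in each condition, with 42.4, 40.9, 41.2 and 41.3 FPKM in cKO DSS, 36.7, 34.0, 37.0 and 37.3 in control DSS, 40.9, 38.6, 45.8 and 37.3 in cKO water and 32.9, 33.1, 36.2 and 36.8 in control water. Its differences of 0.19 ± 0.07 after DSS and 0.22 ± 0.07 on water did not pass (adjusted p = 0.16 and 0.178). After DSS the groups also stood apart for Ces2b, Gsto1, Ces2e and Ugt1a1. The differences of Ces2e and Ugt1a1 were -0.32 ± 0.10 and 0.45 ± 0.23 and did not pass (adjusted p = 0.101 and 0.276). On water the control group also stood apart from cKO for Ces1d, Mgst3, Sult1b1 and Sult1d1, with differences of -0.82, -0.65, 0.32 and 0.59 and adjusted p of 0.125, 0.206, 0.285 and 0.137. These values carry no GC correction, and the control and cKO water libraries stood apart in their correlation with GC as well.

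Whether DSS changed members differently in cKO and control mice was tested as an interaction. limma called 0 of 44 members, where 0.151% of all genes were called, while 11 members had an unadjusted p under 0.05 (23.2% of all genes did), and limma voom on recovered reads also called 0. The smallest p belonged to Sult1b1, whose change with DSS was lower in cKO than in control mice by 0.85 ± 0.22 (difference -0.85, adjusted p = 0.0771). The others with large differences were Gstp1 (-1.24 ± 0.40, adjusted p = 0.122), Ugt1a6b (-1.0 ± 0.38, adjusted p = 0.151), Mgst3 (0.86 ± 0.35, adjusted p = 0.166) and Ces1d (0.85 ± 0.31, adjusted p = 0.145). A member called with DSS in 1 genotype alone is therefore not shown to differ between genotypes. The count reached 5 without cKO DSS 2, 2 without cKO DSS 1 and 1 without control DSS 3, and Sult1b1 was called in each of these. Of all genes, 9.35%, 2.96% and 0.943% were called in these 3 fits. Without cKO DSS 3 and 4 the difference in Sult1b1 was -0.55.

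Genes that supply, export or regulate the conjugation enzymes were read from lists chosen with earlier results in view. With DSS, 28.5% of all genes were called in control mice and 14.7% in cKO mice, the shares to set beside each list count. Of 18 tested genes that supply donors and cofactors, 3 rose and 2 fell with DSS in control mice and 0 were called in cKO mice. Impad1, which degrades a by-product of sulfation, rose by 0.59 ± 0.17 in control mice (40.4 FPKM in control DSS and 26.8 in control water, adjusted p = 0.0224). Of 9 tested exporters of conjugates, none rose, 2 fell in cKO mice and 3 fell in control mice. Abcc3, a basolateral exporter of glucuronides, fell by 0.47 ± 0.11 in cKO mice (adjusted p = 0.0097) and by 0.48 ± 0.11 in control mice (adjusted p = 0.00668). Abcc3 averaged 58.3 ± 7.3 FPKM in cKO DSS, 57.0 ± 4.5 in control DSS, 80.9 ± 6.9 in cKO water and 79.9 ± 9.2 in control water (SD, n = 4 each). After DSS the drug exporter Abcb1a was higher in cKO mice, at 140 FPKM, than in control mice, at 89.0 FPKM (0.64 ± 0.16, adjusted p = 0.0365). It was the only 1 of the 9 exporters called in that comparison, where 3.70% of all genes were called. Of 9 genes that remove conjugates, 1 rose in cKO mice, and 1 rose and 2 fell in control mice. Of 18 other phase II enzymes, 2 fell in cKO mice, and 2 rose and 4 fell in control mice. Mpst, a sulfurtransferase of sulfide metabolism, fell by 0.59 ± 0.18 in cKO mice (adjusted p = 0.0366) and by 0.97 ± 0.18 in control mice (adjusted p = 0.00226). Ephx1, the microsomal epoxide hydrolase, fell by 0.87 ± 0.25 in control mice (adjusted p = 0.0207).

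Of 28 xenobiotic sensors and their partners, 1 rose and 1 fell with DSS in cKO mice, and 4 rose and 5 fell in control mice. For this list and those below, the shares over all genes were again 14.7% in cKO and 28.5% in control mice. Ahr, the aryl hydrocarbon receptor, rose by 0.46 ± 0.13 in control mice (adjusted p = 0.0163), and Nr1i2, the pregnane X receptor (PXR), fell by 0.35 ± 0.09 (adjusted p = 0.0129). Vdr, the vitamin D receptor, fell by 0.36 ± 0.11 in each genotype (adjusted p = 0.0371 in cKO and 0.0232 in control). Maff, a partner of NRF2, was higher in cKO than in control mice after DSS, at 12.3 against 6.95 FPKM (0.74 ± 0.14, adjusted p = 0.0123). It was the only 1 of the 28 called in that comparison, where 3.70% of all genes were called. Of 8 listed targets of the aryl hydrocarbon receptor, only 3 passed the filter and were tested, and Cyp1a2 was at 0 in every library. Both called genes among these 3 rose in control mice: Tiparp by 0.64 ± 0.15 (adjusted p = 0.00668) and Lpcat2 by 0.48 ± 0.11 (adjusted p = 0.00764). None of the 3 was called in cKO mice. Among 10 targets of PXR and of the related receptor CAR outside the families, 3 rose and 2 fell in cKO mice, and 2 rose and 3 fell in control mice. Cyp2c68, a cytochrome P450, stood at 14.8 ± 4.7 FPKM in cKO DSS, 52.0 ± 9.0 in control DSS, 17.0 ± 4.1 in cKO water and 27.8 ± 1.4 in control water (SD, n = 4 each). It was lower in cKO mice after DSS (-1.79 ± 0.22, adjusted p = 0.000953). Of the 10 genes on this list, 1 was called higher in that comparison (Abcb1a, also an exporter) and 1 lower (Cyp2c68). The share over all genes was 3.70%. Among 24 NRF2 targets outside the families, 1 rose and 1 fell in cKO mice, and 3 rose and 3 fell in control mice.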

How the data were processed

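Total RNA of 16 libraries was sequenced. The mm10 build, featureCounts 1.5.0-p3 and DESeq2 1.20.0 are listed in the submitters' processing notes. The aligner, annotation and strand setting were not given in the sources used, so reads of overlapping or antisense genes cannot be told apart. The deposited table holds FPKM per gene and library. Reads recovered from FPKM and gene length were whole, within 0.05, for 100% of values above 0, and served for depth and 1 alternative.

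The analysis used log2(FPKM + 1) of the deposited values, for the 13255 genes that reached 1 FPKM in 4 or more libraries. limma fitted group means over the 16 libraries at once (version 3.58.1, R 4.3.3, eBayes with a trend). Two-sided p-values were adjusted by the Benjamini-Hochberg method over all genes of each of 5 comparisons, and an adjusted p under 0.05 was a call. The script was tested on simulated data. All described members are given by family, with full values for called members and the most abundant of each family; other genes are named from the lists by smallest p. Members and lists were chosen with earlier results of these data known. Exon and 50-base sharing came from the GENCODE M21 annotation and transcripts, and promoter windows from RefSeq. The alternatives were another pseudocount, no filter, quantile normalization, limma voom, a GC correction, a replicate block, fewer samples, a Y-linked covariate and leaving out libraries. Of these, leaving out the libraries with no Y-linked read was chosen after seeing the data.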

Additional observations from a re-analysis of the deposited data

Results flagged for a closer look

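In 8 of 176 member-by-group sets of 4 libraries, 1 library stood far from the other 3; chance gives about 1 in 20. In cKO DSS 2, Ces1g was low at 9.48 FPKM (others 14.7 to 15.5), Ces2b at 1.13 (others 1.87 to 1.95) and Gstt1 at 7.62 (others 10.5 to 10.9). In cKO DSS 1, Gstp1 was high at 4.40 FPKM (others 1.15 to 1.65). In control DSS 4, Gstm7 was low at 4.13 FPKM (others 6.30 to 6.44). In cKO water 2, Gstm3 was low at 34.7 FPKM (others 40.5 to 40.8). In cKO water 3, Sult2b1 was high at 9.92 FPKM (others 9.24 to 9.34) and Ugt2b36 at 2.28 (others 1.11 to 1.19).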

How the results depend on the processing

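Counts of called members were 9 (DSS in control), 5 (DSS in cKO), 1 (cKO against control on water), 1 (cKO against control after DSS) and 0 (interaction). In the same order, 28.5, 14.7, 0.0905, 3.70 and 0.151% of all genes were called. Without a filter on low values the member counts were 3, 2, 0, 0 and 0. Of the 30420 genes then tested, 8.9, 4.8, 0.00657, 0.687 and 0.0131% were called. The Y-linked level as a covariate gave 1 for DSS in control and 0 for DSS in cKO (1.46% and 0.709% of all genes). Leaving out the libraries with no Y-linked read gave 4, 0, 0 and 0 (13.4, 4.28, 0.00754 and 1.92% of all genes). Without control 4 and control DSS 2 the count was 1 for DSS in control and 0 for cKO against control after DSS. Of all genes, 11% and 0.883% were called in these fits. For cKO against control after DSS, limma voom gave 3 (3.92% of all genes) and the GC correction 2 (4.2%). Both the 8 samples alone (0.724%) and the fit without cKO DSS 3 and 4 (0.249%) gave 0 in that comparison. Leaving out each library in turn gave 3 to 11, 2 to 6, 0 to 1, 0 to 4 and 0 to 5 calls. Of all genes, these fits called 16.9 to 32.1%, 9.85 to 16.2%, 0.0151 to 0.837%, 0.588 to 6.68% and 0 to 9.35%. Over 432 alternative values of the 16 called results, 319 were still called and 0 changed sign. Fits that dropped a library outside the comparison, changed only the filter or added the replicate block left the change itself as it was. Its sign could not turn there, so these totals overstate how far the results were tried. The cause of the losses was not tested.

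With a replicate block the counts were 9, 4, 0, 1 and 0 (29.1, 14.3, 0.0151, 3.24 and 0.0981% of all genes). Gstm1 (DSS in cKO) and Ces2b (water) then lost their calls. Of 24 same-numbered pairs of libraries, 6 correlated above 0.1 (range -0.199 to 0.3), so the numbers were not taken to pair the libraries. As a hint from the data and not the design, 9 of 16 libraries correlated best with a library of their own number. Members near 1 FPKM rest on few reads, which limits Ces1c, Sult6b1 and Ugt2b36 most.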
